A study of Mus musculus with 10 samples.

Results

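The genes studied here encode the nuclear subunits of the mitochondrial respiratory chain and of the ATP synthase, measured as RNA in mouse myeloid cells. They were taken by symbol: names that begin with Ndufa, Ndufb, Ndufc, Ndufs, Ndufv, Uqcr, Cox4 to Cox8 or Atp5, the genes Sdha, Sdhb, Sdhc and Sdhd, and Cyc1 and Cycs. This gave 87 genes on 88 probes, of 20243 measured features, 15097 of which carried a gene symbol. By symbol, 33 genes belong to complex I, 4 to complex II, 9 to complex III, 16 to complex IV and 17 to complex V, with 1 gene for cytochrome c. The remaining 7 are Ndufaf genes, which begin with the same letters but encode assembly factors of complex I and not subunits. Under these symbols, 2 entries are named as pseudogenes (Atp5k-ps1 and Ndufs5-ps) and 6 are complex IV isoforms known from particular tissues such as muscle or testis (Cox4i2, Cox6a2, Cox7a1, Cox7b2, Cox8b and Cox8c). The reference gene table held 86 of the 87. Of the 26 names searched for genes of the mitochondrial genome, 0 were measured, so the subunits encoded there are not described.

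The respiratory chain lies in the inner mitochondrial membrane. Complex I takes electrons from NADH and complex II takes them from succinate. Both pass them to ubiquinone, then to complex III, to the mobile carrier cytochrome c and to complex IV, which reduces oxygen. Complexes I, III and IV pump protons, and complex V, the ATP synthase, uses the resulting gradient to make ATP. Proliferating myeloid progenitors and mature phagocytes are known to use respiration and glycolysis in different proportions, and cytochrome c also triggers caspase activation when it leaves the mitochondrion.

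The cells were FDB1, a mouse myeloid progenitor line that depends on IL-3 for growth. In 1 line the cells expressed FI-Delta Y577F (Y577F below), and in the other FI-Delta, a mutant of the beta chain that the receptors for GM-CSF, IL-5 and IL-3 have in common. Y577F has in addition a tyrosine-to-phenylalanine change. The 4 RNA groups were Y577F cells and FI-Delta cells at 72 h, after washing and growth without added factor, and both lines at 0 h, grown with IL-3 and serum. Each group had 2 cultures, per the design text. Whether each line was a clone or a pool is not given in the sources used here. Cells without a mutant receptor were not analysed here.

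Total RNA was hybridised in pairs to 10 two-colour arrays of spotted oligonucleotides, so each array gives the ratio of 1 group to another and no level. The pairs close a loop of 4 sides: 72 h over 0 h in Y577F cells (2 arrays), 72 h over 0 h in FI-Delta cells (3 arrays, of which arrays 1 and 2 carry the same RNA with the dyes swapped), Y577F over FI-Delta at 72 h (2 arrays) and Y577F over FI-Delta at 0 h (3 arrays). All values below are log2 ratios with the first-named group on top, turned by the array titles. The log base of 2 and the order Cy5 over Cy3 were assumed, since the submitters' processing notes name limma, which writes ratios that way; the opposite order would turn every direction given here. Spot intensities were not analysed here, so dim probes could not be filtered or marked. The precision is limited by the number of arrays. Changes are given as the estimate ± standard error (SE) of a limma model over 9 hybridisations, the dye swap averaged to 1. A gene is called where its limma p-value, adjusted by Benjamini and Hochberg over all 20243 features, is under 0.05. Several arrays share an RNA extract and the model takes them as independent, so p-values measure the spread between these arrays, part of which may be technical.

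Few respiratory chain genes were called, and those called went in both directions. Of the 87 genes, 10.3% were called in Y577F cells over time, 1.15% in FI-Delta cells and 10.3% at 72 h between the lines. At 0 h 0% were called, and for the difference between the lines in their change 6.90%. At 72 h, at 0 h and for the difference, these shares lay near those of all features, given next. A gene not called is not shown to be unchanged. In Y577F cells at 72 h against 0 h, 4 of 87 genes rose (Atp5md, Sdhb, Atp5e and Ndufa13) and 5 fell (Ndufa12, Cycs, Uqcrc2, Ndufs6 and Ndufaf7), where 9.28% of all features rose and 8.75% fell (18.0% either way). Atp5md counts there by the average of probes that disagreed, which are described apart below. In FI-Delta cells, 1 gene rose (Cox7a2) and 0 fell, against 5.19% and 2.97% of all features (8.16% either way). At an unadjusted p under 0.05, 4 were higher and 1 lower, beside 2235 higher and 1764 lower of 20243 features. Between the lines at 72 h, 3 genes were higher in Y577F cells (Sdhb, Ndufs3 and Sdha) and 6 lower (Uqcrb, Ndufa12, Cox7a2, Cycs, Ndufs6 and Uqcrc2), against 6.44% and 6.45% of all features (12.9% either way). At 0 h, 0 genes were called by limma, against 0.934% higher and 0.484% lower of all features (1.42% either way). The change in Y577F cells was higher than that in FI-Delta cells for 1 gene (Sdha) and lower for 5 (Ndufa12, Ndufaf3, Ndufs6, Cox7a2 and Uqcrc2), against 4.33% and 4.91% of all features (9.24% either way). These sides share RNA, so a gene called on both sides that hold Y577F RNA of 72 h was not measured independently on each.

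These counts depend on single arrays and on the model. Leaving out 1 array at a time gave 0 to 5 genes lower in Y577F cells (0 without Y577F time array 1), 1 to 6 lower at 72 h (1 without 72 h array 2) and 0 to 10 lower for the difference (0 without 0 h array 1 or 72 h array 2, and 10 without Y577F time array 2). With array weights 14 genes were higher at 72 h. The share of all features called in these other fits was not computed, so the shifts are not shown to be particular to these genes. The replicate block gave each RNA extract its own coefficient, with no dye term and fewer residual degrees of freedom than the main fit. With it, the calls of Atp5md (its probes averaged), Ndufa12 and Cycs in Y577F cells were kept. So were those of Sdhb, Ndufa12 and Cox7a2 at 72 h. Every other call among the 87 genes was lost with the block, including the 1 in FI-Delta cells and all 6 for the difference, at limma adjusted p between 0.0818 and 0.309. On direct arrays only, the same calls were kept except that of Ndufa12 at 72 h (limma adjusted p = 0.0973), and all others were lost. That fit had no dye term either. Which of these changes to the model lost the calls was not tested.

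The typical member moved little. The median over the 87 genes was -0.01 in Y577F cells and 0.05 in FI-Delta cells for 72 h over 0 h, with 41 and 53 positive values. Between the lines it was -0.02 at 72 h, with 38 positive values, and 0.05 at 0 h, with 62 positive values. The medians over all features lay between -0.0059 and 0.0073 on these 4 sides. The median size of a change, whatever its sign, was 0.10 for the chain and 0.13 for all features in Y577F cells, and 0.11 for both in FI-Delta cells. Of the 87 estimates, 78 in Y577F cells and 81 in FI-Delta cells had 95% confidence intervals that lay wholly within a 1.5-fold change in either direction. At 72 h between the lines 76 did, and at 0 h 87 did. Median SEs over the 87 genes were 0.10 in Y577F cells and 0.11 in FI-Delta cells, close to those of all features at 0.10 and 0.10.

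The medians by complex differed most on the sides that hold Y577F RNA of 72 h. For 72 h over 0 h in Y577F cells the medians were -0.0039 for complex I, 0.21 for complex II, -0.13 for complex III, 0.08 for complex IV and -0.06 for complex V. In FI-Delta cells the same medians lay between 0.03 and 0.08. For Y577F over FI-Delta at 72 h, complex II stood at 0.32 and the other 4 complexes between -0.06 and 0.03. At 0 h the 5 medians lay between 0.02 and 0.06. Complex II holds only 4 genes, so its median describes few values.

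**Figure D1:**
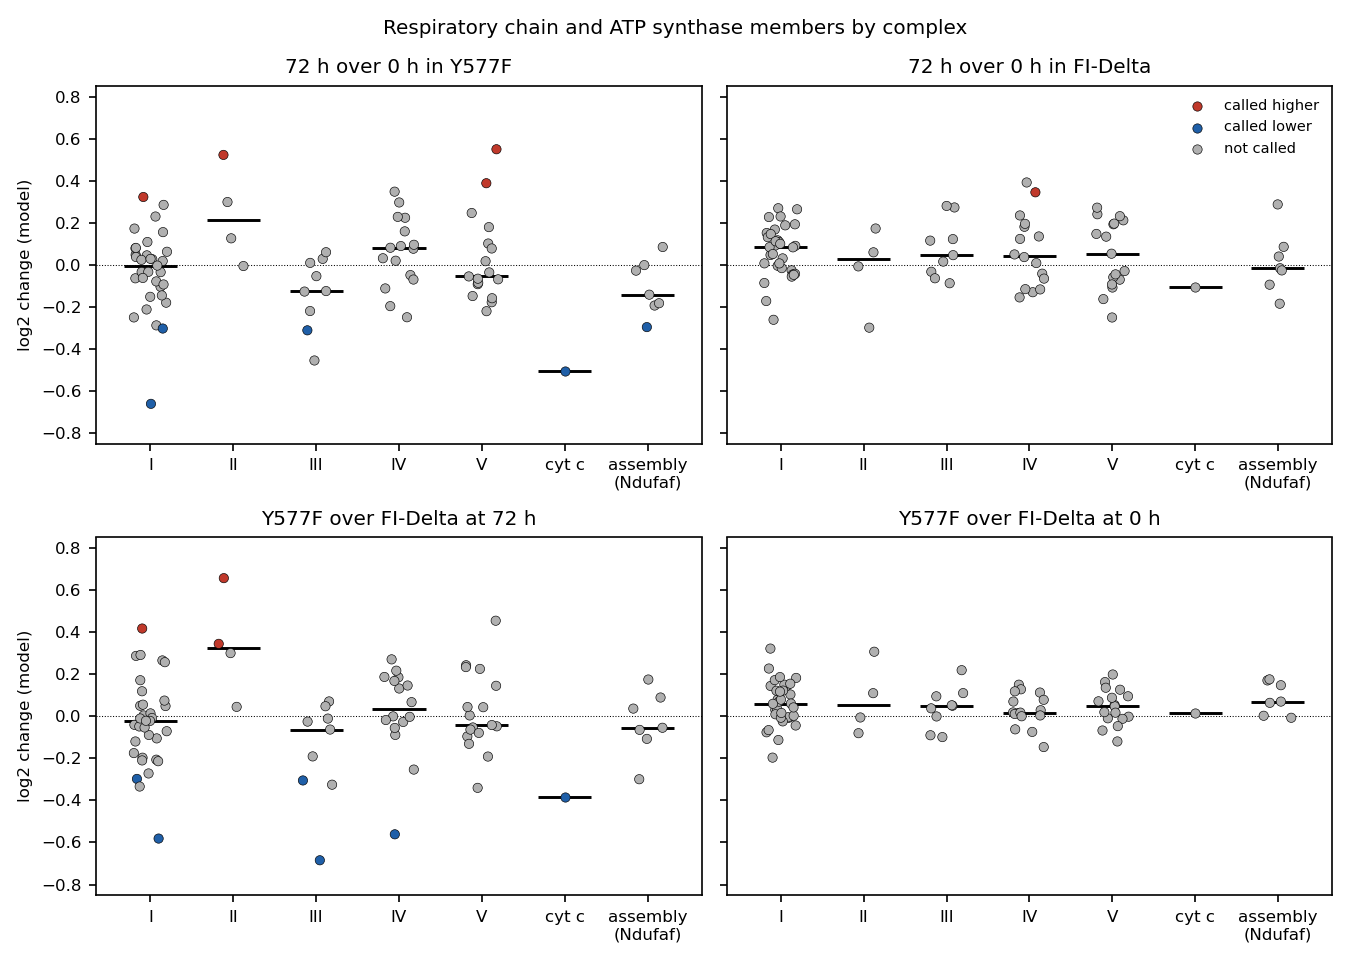
Model estimates (log2 change) of the 87 genes by complex on the 4 sides of the design, 1 point a gene, with the median of each complex as a bar and called genes coloured. Most points lie near 0 in every complex. The called genes stand on the sides that hold Y577F RNA of 72 h, except Cox7a2 (0.34) in FI-Delta cells.

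The start of each gene was read for short sequences that known regulators of mitochondrial genes bind, and 4 of these promoters are shown because their genes carry the clearest changes below. The windows are those of RefSeq on GRCm38.p6 (mouse), 250 bases before to 50 after a start site, and 69 of the member genes had one. Searched on both strands were GCGCNTGCG for nuclear respiratory factor 1 (NRF1), CCGGAAG for ETS factors such as GABP (nuclear respiratory factor 2), and AAGATGGCG for YY1. None of these strings holds another, and the NRF1 and YY1 letters were chosen after the windows had been seen. Matches are in capitals, each window is 5′ to 3′ on the gene's strand, and the gene identifiers are NCBI's. Sdhb (67680, plus strand of chr4:140961021-140961320) holds 1 ETS match, in the last 50 bases. Ndufa12 (66414, plus strand of chr10:94198785-94199084) and Cycs (13063, minus strand of chr6:50566520-50566819) hold 1 NRF1 match each. Cox7a2 (12866, minus strand of chr9:79759804-79760103) holds 0 matches.
Sdhb: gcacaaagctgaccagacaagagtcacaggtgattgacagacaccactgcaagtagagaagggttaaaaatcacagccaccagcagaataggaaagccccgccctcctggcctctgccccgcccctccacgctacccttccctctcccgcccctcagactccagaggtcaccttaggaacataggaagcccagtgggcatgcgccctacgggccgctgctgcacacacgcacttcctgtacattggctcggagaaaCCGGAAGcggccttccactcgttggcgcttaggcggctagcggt
Ndufa12: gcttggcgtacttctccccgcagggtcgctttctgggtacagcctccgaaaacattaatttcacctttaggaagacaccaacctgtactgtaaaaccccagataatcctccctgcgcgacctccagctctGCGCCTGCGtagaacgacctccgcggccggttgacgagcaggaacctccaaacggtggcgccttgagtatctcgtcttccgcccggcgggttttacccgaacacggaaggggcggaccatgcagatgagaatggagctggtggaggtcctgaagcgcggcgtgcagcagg
Cycs: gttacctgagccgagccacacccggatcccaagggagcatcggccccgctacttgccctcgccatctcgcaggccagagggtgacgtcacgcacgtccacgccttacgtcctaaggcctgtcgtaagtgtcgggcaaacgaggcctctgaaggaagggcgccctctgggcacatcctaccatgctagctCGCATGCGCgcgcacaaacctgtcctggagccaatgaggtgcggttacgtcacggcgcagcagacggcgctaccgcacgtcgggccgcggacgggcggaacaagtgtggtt
Cox7a2: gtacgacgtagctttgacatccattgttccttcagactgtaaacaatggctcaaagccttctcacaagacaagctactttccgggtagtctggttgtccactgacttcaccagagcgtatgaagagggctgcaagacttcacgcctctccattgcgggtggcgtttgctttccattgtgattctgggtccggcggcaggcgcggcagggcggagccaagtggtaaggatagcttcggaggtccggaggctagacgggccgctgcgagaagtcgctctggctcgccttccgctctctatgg
Over the 69 genes, 23 had an NRF1 match (33.3%), 17 an ETS match (24.6%) and 8 a YY1 match (11.6%), where the shares over 27025 genes with a window were 7.12%, 9.93% and 1.64%. Those 27025 are all genes with a window, measured here or not, and a gene counted where any of its windows matched. Since the NRF1 and YY1 letters were chosen with the windows seen, their shares are no test of enrichment. NRF1 matches were found in 7 of 29 complex I, 2 of 3 complex II, 3 of 5 complex III, 1 of 11 complex IV and 8 of 14 complex V genes. ETS matches were found in 2 of 29, 2 of 3, 2 of 5, 3 of 11 and 6 of 14 genes of complexes I to V. A match is a stretch of letters and not a bound site.

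In complex II, the subunits that carry out the oxidation were higher in Y577F than in FI-Delta cells at 72 h. Sdhb, the iron-sulfur subunit, had ratios of 0.93 and 0.33 on the direct arrays of 72 h, both above 0 but of unequal size. The model gave 0.66 ± 0.10, or 1.58-fold higher in Y577F cells (limma adjusted p = 0.000933). Sdha, the flavoprotein subunit that binds succinate, had 0.29 and 0.46 on the same arrays and a change of 0.34 ± 0.09 (limma adjusted p = 0.0289). Both arrays were positive for it as well. The membrane anchors were not called: Sdhc had 0.30 ± 0.11 (limma adjusted p = 0.106) and Sdhd 0.04 ± 0.09. All 4 estimates of the complex were positive on this side.

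On the time side, Sdhb in Y577F cells had 0.53 and 0.56 on the 2 arrays, and 0.10, 0.21 and -0.03 in FI-Delta cells. The Y577F arrays lay close together and above all 3 FI-Delta arrays. Its change was 0.52 ± 0.10 in Y577F cells (limma adjusted p = 0.00312) and 0.17 ± 0.10 in FI-Delta cells (limma adjusted p = 0.409). The difference between these changes, 0.35 ± 0.11, was not called (limma adjusted p = 0.0829). Sdha behaved differently: 0.13 and 0.06 in Y577F cells, and -0.19, -0.16 and -0.36 in FI-Delta cells, so that the arrays of the lines did not overlap. Neither change was called by itself, at 0.13 ± 0.09 in Y577F cells and -0.30 ± 0.09 in FI-Delta cells, but their difference was, at 0.42 ± 0.10 (limma adjusted p = 0.0271). Without the second 72 h array that difference was 0.35 (limma adjusted p = 0.164). It also missed the threshold without the first array of 0 h, 72 h or Y577F time, or without FI-Delta time array 3, with estimates between 0.41 and 0.45. The 72 h call of Sdhb held without each array in turn and under the 8 other settings tried. Its call in Y577F cells was lost without Y577F time array 2 (0.38, limma adjusted p = 0.0516). The 72 h call of Sdha was lost without either 72 h array (0.38 and 0.26), Y577F time array 1 (0.34) or FI-Delta time array 3 (0.33).

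In complex I, 3 of 33 genes were called in Y577F cells over time, 3 between the lines at 72 h and 0 in FI-Delta cells. Over all features 18.0%, 12.9% and 8.16% were called on these sides, where complex I had 9.09%, 9.09% and 0%. In FI-Delta cells 1 complex I gene was higher at an unadjusted p under 0.05, beside 2235 of 20243 features. Ndufa12 is an accessory subunit of the arm that faces the matrix. Its 72 h over 0 h ratios were -0.89 and -0.53 in Y577F cells, and -0.22, 0.03 and -0.10 in FI-Delta cells. Both Y577F arrays lay below all FI-Delta arrays. The gene fell in Y577F cells, with -0.66 ± 0.12, or 1.58-fold lower at 72 h (limma adjusted p = 0.00297), and had -0.09 ± 0.13 in FI-Delta cells (limma adjusted p = 0.796). The difference of -0.57 ± 0.14 was called (limma adjusted p = 0.028). Between the lines its ratios were -0.25 and -0.81 at 72 h, and 0.27, -0.25 and -0.27 at 0 h. At 72 h both arrays were negative and the change was -0.58 ± 0.12 (limma adjusted p = 0.00892), whereas at 0 h the arrays disagreed in sign. The time call rested on Y577F time array 1 (without it -0.39, limma adjusted p = 0.0644) and the 72 h call on 72 h array 2 (without it -0.50, limma adjusted p = 0.128). The call of the difference was lost without 0 h array 1 (-0.49), 72 h array 2 (-0.50) or FI-Delta time array 3 (-0.54).

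Ndufs6, an accessory subunit next to the NADH-binding module, had -0.35 and -0.15 over time in Y577F cells, and 0.08, 0.17 and -0.03 in FI-Delta cells. Here too the lines did not overlap. It fell in Y577F cells (-0.30 ± 0.09, limma adjusted p = 0.035) and had 0.11 ± 0.09 in FI-Delta cells, and the difference of -0.41 ± 0.10 was called (limma adjusted p = 0.0271). At 72 h it was lower in Y577F cells (-0.30 ± 0.09), close to the threshold (limma adjusted p = 0.049). That call was kept without 0 h array 3 or Y577F time array 2 and lost without any of the 8 other arrays, with -0.22 without 72 h array 2. Its time call was lost without either 72 h array, the first array of 0 h or of Y577F time, or FI-Delta time array 3 (-0.30 to -0.24). The call of its difference was lost without the same arrays except the last (-0.42 to -0.34).

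Ndufs3, a core subunit of the part that reduces ubiquinone, was higher in Y577F cells at 72 h, with 0.37 and 0.43 on the direct arrays. These arrays lay close together, and the change was 0.42 ± 0.08 (limma adjusted p = 0.00454; without 72 h array 1, 0.41 and 0.0548). At 0 h it had 0.15, 0.20 and 0.42 and a change of 0.23 ± 0.07 that was not called (limma adjusted p = 0.203). All 5 arrays between the lines were positive for this gene. Ndufa13, a subunit of the membrane arm, had 0.27 and 0.47 over time in Y577F cells and 0.32, 0.29 and 0.08 in FI-Delta cells. The lines overlapped, and all 5 arrays were positive. It rose in Y577F cells (0.32 ± 0.09, limma adjusted p = 0.0356) and was not called in FI-Delta cells (0.27 ± 0.10, limma adjusted p = 0.14); the difference was 0.05 ± 0.11. That call was lost without 72 h array 1 (0.31), 0 h array 2 (0.31), Y577F time array 1 (0.41) or Y577F time array 2 (0.18). In FI-Delta cells Ndufa6, an accessory subunit of complex I, had 0.26 ± 0.13, which was not called.

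Grouped by position in complex I, an assignment made after the values were seen, 9 genes of the NADH-binding module had 2 called lower in Y577F cells over time (Ndufa12 and Ndufs6), 5 of the ubiquinone module 0, and 16 of the membrane arm 1 higher (Ndufa13). The module medians on that side were -0.0039, 0.02 and -0.0045. The largest values at 0 h were Ndufa1 (0.32 ± 0.09, limma adjusted p = 0.168) and Ndufs3, both uncalled. For the difference between the lines' changes, 22 of 33 complex I values were negative, against 9658 of 20243 features. The median was -0.13 against 0.01 over all features, and Ndufa12 and Ndufs6 were the called ones. On the direct time arrays the complex I medians of the lines overlapped, with -0.05 and 0.11 in Y577F cells, and 0.05, -0.03 and 0.04 in FI-Delta cells. Between the lines they were -0.06 and -0.19 at 72 h, and 0.08, 0.02 and 0.15 at 0 h.

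Among the 7 Ndufaf assembly factors, Ndufaf7, a methyltransferase that acts on a core subunit of complex I, had -0.07 and -0.66 over time in Y577F cells. The arrays were both negative but far apart, and the change of -0.30 ± 0.09 was called (limma adjusted p = 0.0361) in 4 of the 10 fits that left out an array. Without Y577F time array 2 it was -0.18 (limma adjusted p = 0.302). The call was also lost without Y577F time array 1, 72 h array 1, 0 h array 2, and each of FI-Delta time arrays 2 and 3 (-0.32 to -0.29). Ndufaf3, which helps build the ubiquinone module, had -0.19 and -0.06 over time in Y577F cells, and 0.53, 0.02 and 0.26 in FI-Delta cells. The Y577F arrays were below 0 and the FI-Delta arrays above it. Neither change was called (-0.18 ± 0.09 in Y577F cells and 0.29 ± 0.09 in FI-Delta cells), and their difference was, at -0.47 ± 0.10 (limma adjusted p = 0.0167). It was lost without 0 h array 1 (-0.49), 72 h array 1 (-0.46) or 72 h array 2 (-0.41). Of the other assembly factors, Ndufaf8 had 0.18 ± 0.11 at 0 h and 0.17 ± 0.12 at 72 h between the lines, both uncalled.

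In complex III, Uqcrc2, a core protein on the matrix side, fell in Y577F cells. Its ratios over time were -0.46 and -0.18 in Y577F cells, and 0.17, -0.27 and 0.24 in FI-Delta cells, so the lines overlapped at 1 FI-Delta array. The change was -0.31 ± 0.09 in Y577F cells (limma adjusted p = 0.027) and 0.05 ± 0.09 in FI-Delta cells, with a called difference of -0.36 ± 0.10 (limma adjusted p = 0.0454). At 72 h it had -0.25 and -0.34 and a change of -0.31 ± 0.09 (limma adjusted p = 0.0391). The time call was lost without either Y577F time array (-0.26 and -0.35). The 72 h call was kept without 0 h array 3, FI-Delta time array 2 or Y577F time array 2 and lost without any of the 7 others, with -0.22 without 72 h array 2. The call of the difference was kept without the first 72 h array or FI-Delta time array 2 and lost without any of the 8 others, with -0.28 without 72 h array 2.

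Uqcrb, a small subunit near the ubiquinone site, had 0.11 and -0.79 at 72 h, on arrays that disagreed in sign. The model gave -0.68 ± 0.20 (limma adjusted p = 0.0446), but the direct arrays alone gave -0.34 (limma adjusted p = 0.428) and array weights -0.45 (limma adjusted p = 0.0523). Without 72 h array 1 it was -1.06. The call was kept without the first FI-Delta time array or the first of 72 h and lost without any of the 8 others, where the estimates lay between -0.80 and -0.58. Over time it had -0.51 and -1.08 in Y577F cells, and 0.03, 0.92 and 0.51 in FI-Delta cells. The lines did not overlap, but with SEs of 0.20 and 0.21 neither change was called (-0.46 in Y577F cells and 0.28 in FI-Delta cells), nor was the difference of -0.73 ± 0.23 (limma adjusted p = 0.0722). Cyc1, the cytochrome c1 subunit that hands electrons to cytochrome c, was called on no side: -0.22 ± 0.17 in Y577F cells and 0.02 ± 0.18 in FI-Delta cells over time, and -0.33 ± 0.17 at 72 h and -0.09 ± 0.15 at 0 h between the lines. Uqcr11 had 0.27 ± 0.15 in FI-Delta cells over time and 0.22 ± 0.13 at 0 h, and Uqcr10 had 0.11 ± 0.08 at 0 h, all uncalled. For the difference between changes, 8 of 9 complex III values were negative, against 9658 of 20243 features.

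Cycs, the somatic cytochrome c, fell in Y577F cells, with 72 h over 0 h ratios of -0.82 and -0.23. In FI-Delta cells they were -0.16, -0.20 and 0.10. Both Y577F arrays lay below the FI-Delta arrays, though the nearest pair differed little. The change was -0.50 ± 0.10 in Y577F cells, or 1.42-fold lower at 72 h (limma adjusted p = 0.00551), and -0.10 ± 0.11 in FI-Delta cells (limma adjusted p = 0.688). The difference of -0.40 ± 0.12 missed the threshold (limma adjusted p = 0.0619). At 72 h Cycs had -0.34 and -0.39 between the lines and was lower in Y577F cells (-0.39 ± 0.10, limma adjusted p = 0.032), and at 0 h it had 0.07, 0.02 and -0.01. The time call rested on Y577F time array 1 (-0.32 without it, limma adjusted p = 0.129). The 72 h call was lost without either 72 h array (-0.48 and -0.32), 0 h array 2 (-0.38), FI-Delta time array 3 (-0.36) or Y577F time array 1 (-0.32).

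In complex IV, Cox7a2 was the gene called. It encodes the isoform of subunit VIIa found in most tissues. At 72 h its ratios between the lines were -0.50 and -0.66, and at 0 h -0.19, -0.13 and -0.05. All 5 were negative, and the 72 h arrays lay below those of 0 h. The change at 72 h was -0.56 ± 0.08, or 1.48-fold lower in Y577F cells (limma adjusted p = 0.000866), and at 0 h -0.15 ± 0.07 (limma adjusted p = 0.475). Over time it had -0.18 and 0.08 in Y577F cells, and 0.32, 0.35 and 0.35 in FI-Delta cells. The FI-Delta arrays lay close together, and the lines did not overlap. The change was -0.07 ± 0.08 in Y577F cells and 0.34 ± 0.09 in FI-Delta cells (limma adjusted p = 0.0312), with a called difference of -0.41 ± 0.10 (limma adjusted p = 0.0204). The 72 h call held without each array in turn and under the 8 other settings. The call in FI-Delta cells was lost without 0 h array 1 (0.35), 72 h array 2 (0.29) or FI-Delta time arrays 2 (0.33) or 3 (0.36), and that of the difference without Y577F time array 1 (-0.39), 72 h array 2 (-0.32) or 0 h array 1 (-0.42).

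The other 15 complex IV genes were not called on any side. Cox6b1, a subunit on the cytochrome c side, had 0.35 ± 0.13 in Y577F cells over time (limma adjusted p = 0.0845), and Cox4i1, a regulatory subunit, had 0.30 ± 0.12 (limma adjusted p = 0.112). At 0 h Cox5a had 0.15 ± 0.11. The 6 isoforms known from particular tissues had medians of 0.05 in Y577F cells and -0.05 in FI-Delta cells over time, and the 10 ubiquitous ones 0.08 and 0.13. Cox7a1, the muscle form of subunit VIIa, had 0.02 ± 0.19 in Y577F cells and 0.39 ± 0.20 in FI-Delta cells, neither called. Ndufa4, which carries a complex I name but is now assigned to complex IV, had -0.20 ± 0.09 at 72 h between the lines. Counted with complex IV, it gave that complex a 72 h median of -0.000467, against 0.03 without it, and 1 called gene either way.

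In complex V, 2 of 17 genes rose in Y577F cells over time, near the 9.28% of all features, and 0 were called on the other sides. Atp5md counts among the 2 by the average of probes that disagreed. At an unadjusted p under 0.05, 1 gene was higher in FI-Delta cells, 3 were higher and 1 lower at 72 h, and 0 at 0 h. Of 20243 features, 2235 were higher in FI-Delta cells, 2556 higher and 2621 lower at 72 h, and 1321 higher and 1132 lower at 0 h. Atp5e, the epsilon subunit of the central stalk, had 0.29 and 0.49 in Y577F cells, and 0.13, -0.03 and 0.34 in FI-Delta cells. The lines overlapped. It rose in Y577F cells (0.39 ± 0.09, limma adjusted p = 0.0112; without Y577F time array 2, 0.32 and 0.102) and had 0.19 ± 0.09 in FI-Delta cells (limma adjusted p = 0.292), with an uncalled difference of 0.20 ± 0.10. Atp5g2, 1 of the genes for the membrane ring that turns with proton flow, had 0.45 ± 0.15 at 72 h between the lines (limma adjusted p = 0.0723) and -0.25 ± 0.16 over time in FI-Delta cells. Atp5j, of the peripheral stalk, had -0.34 ± 0.13 at 72 h and 0.27 ± 0.14 over time in FI-Delta cells. Atp5pb, also of the peripheral stalk, had 0.20 ± 0.12 at 0 h and a difference between changes of -0.39 ± 0.15, and Atp5g1 had 0.16 ± 0.08 at 0 h. None of these was called.

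Atp5md, a small membrane subunit tied to pairing of ATP synthases, was the gene with more than 1 probe, and its probes disagreed. Averaged, it had 0.52 and 0.52 over time in Y577F cells and a change of 0.55 ± 0.10 (limma adjusted p = 0.00216) that held without each array in turn, but that rests on 1 of its probes. Taken apart, probe 1 had 1.06 and 0.96 in Y577F cells, and 0.06, 1.09 and 0.46 in FI-Delta cells. Probe 2 had -0.03 and 0.09 in Y577F cells, and -0.14, -0.21 and -0.08 in FI-Delta cells. Probe 1 was well above 0 on both Y577F arrays and probe 2 lay between -0.21 and 0.09 on all 5. With each probe as its own feature, probe 1 gave 1.12 in Y577F cells (limma adjusted p = 1.56e-05), 0.47 in FI-Delta cells (limma adjusted p = 0.0181), 0.38 between the lines at 72 h (limma adjusted p = 0.0305) and a difference of 0.65 (limma adjusted p = 0.00525). Probe 2 gave -0.02, -0.08, 0.09 and 0.06 on the same sides and was not called. The averaged value therefore describes neither probe, and which transcript each probe detects was not tested.

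**Figure D2:**
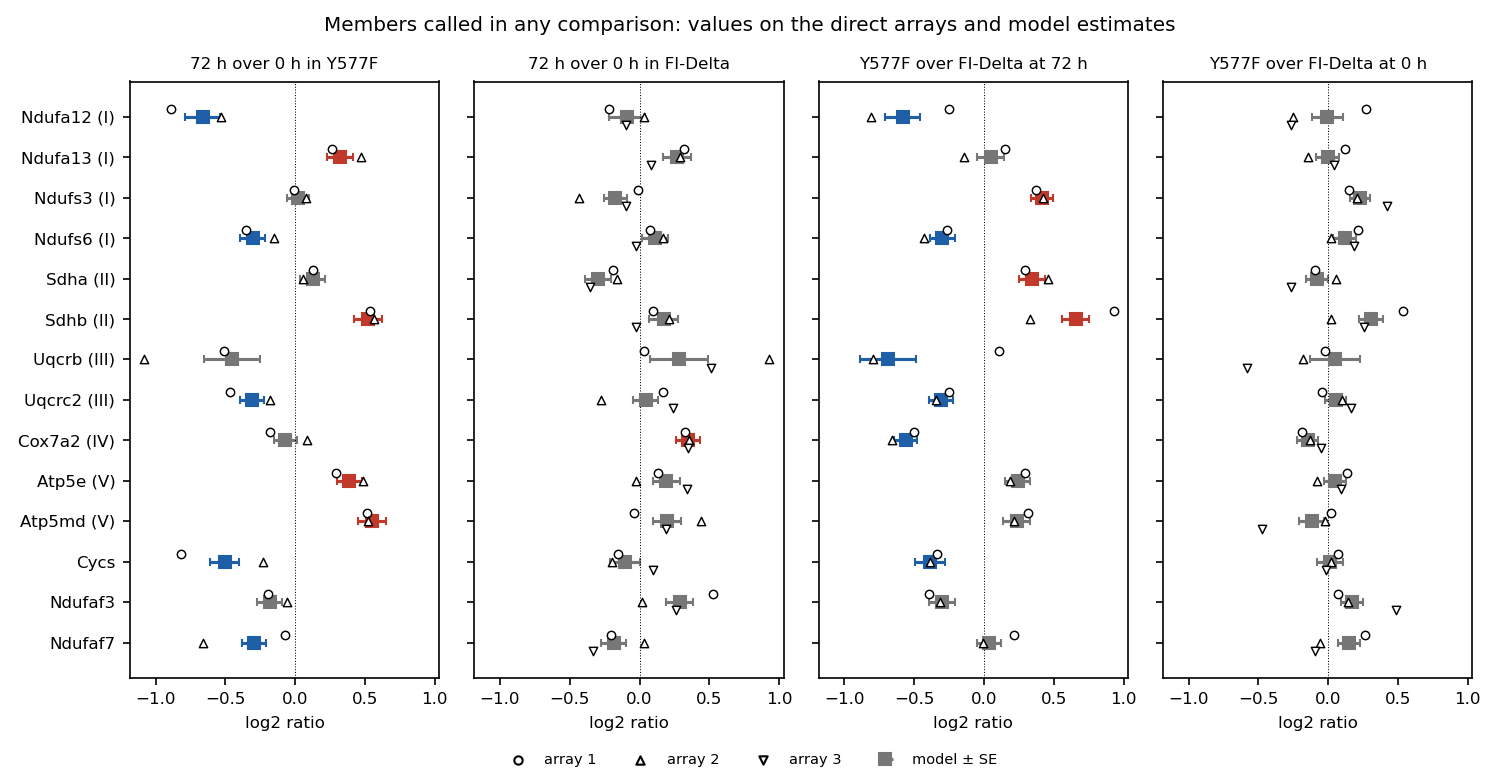
The 14 genes called in any comparison, with log2 ratios on each direct array (open symbols) and the model estimate ± SE (squares, red where called higher and blue where called lower); roman numerals give the complex. Ndufa12, Sdhb and Cox7a2 stand apart from 0 at 72 h between the lines, while at 0 h none of the squares is coloured.

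The plot of called genes by array shows the 0 h side without a call. At 0 h, 3 genes were higher and 1 lower at an unadjusted p under 0.05, beside 1321 higher and 1132 lower of 20243 features. Estimates of the 87 genes ran from -0.20 to 0.32. Sdhb, after Ndufa1, had 0.31 ± 0.09 (limma adjusted p = 0.158), on arrays of 0.53, 0.02 and 0.25, all positive but uneven. Sdhd had 0.11 ± 0.08, and Ndufaf3 0.17 ± 0.08. Of the 87 genes, 62 had positive values at 0 h, and the medians on the 3 arrays were 0.06, 0.01 and 0.09. No gene was called under any of the other settings or without any array.

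Agreement between arrays of the same side was lower for these genes than over all features on 3 of the 4 sides. The Y577F time arrays had the same sign for 50.6% of the 87 genes, against 60.8% of all features, and a correlation of 0.31 across genes, against 0.63. The FI-Delta time arrays had 1 sign on all 3 for 20.7%, against 35.4%, and the 72 h arrays for 49.4%, against 59.6%. At 0 h the share was 32.2%, against 29.0%. Arrays 1 and 2 of FI-Delta time, which hold the same RNA with the dyes swapped, had r = -0.28 over the 87 genes and 0.24 over all features. At 0 h, arrays 2 and 3 have the same dye order and share 1 culture number, and had r = 0.59. Array 1, of the opposite order, had r = -0.31 and -0.40 with them, and 0.09 and -0.04 over all features, so these correlations do not settle its orientation. Its strong line markers ran as the title says: the neutrophil granule genes had a median of -1.24 on array 1, and -1.32 and -0.90 on arrays 2 and 3. These are correlations across genes, which are not independent replicates. A dye term for each gene was in the model; it was called in 146 features and in 0 of the 87 genes, with the largest at 0.40 for Cox7a1 and an SD of 0.13 over the 87 genes and 0.11 over all features.

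**Figure D3:**
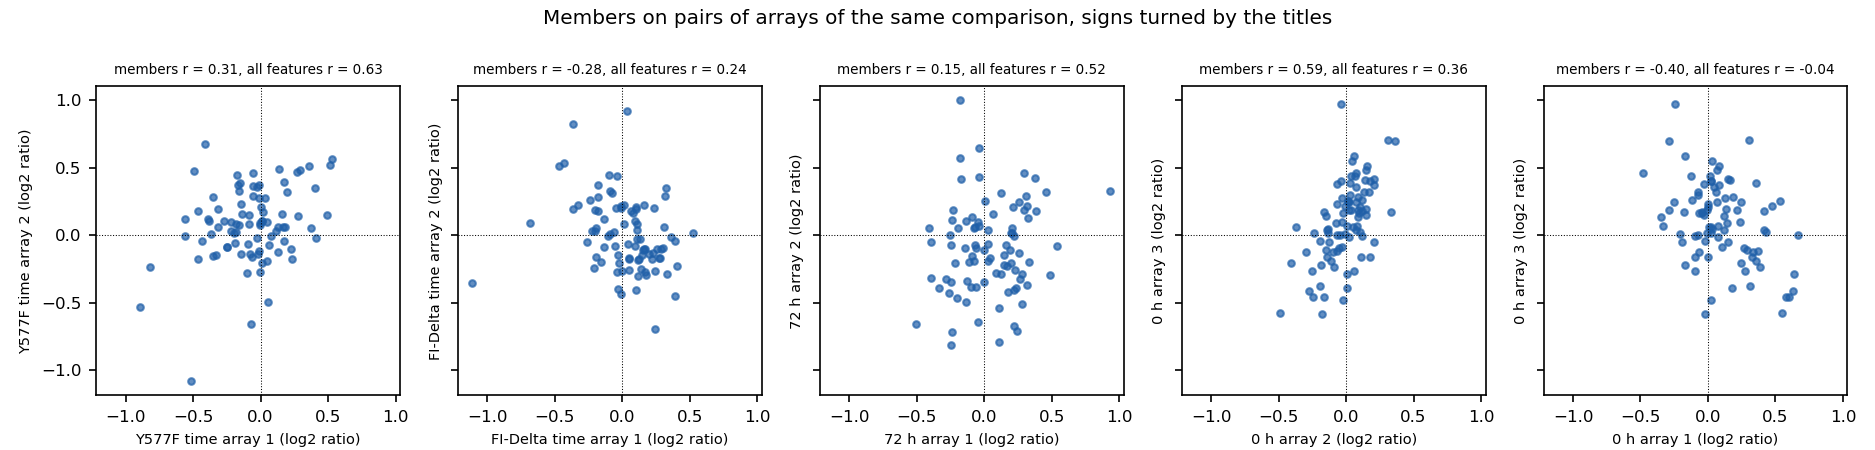
Log2 ratios of the 87 genes on pairs of arrays of the same side, 1 point a gene, both axes turned by the titles. The points spread along the diagonal for 0 h arrays 2 and 3 (r = 0.59) and against it for the dye swap of FI-Delta time (r = -0.28).

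The plot of array pairs shows how the genes scatter on single arrays, where their SDs lay between 0.16 and 0.34. Array medians of the 87 genes were -0.06 and 0.08 on the Y577F time arrays and 0.05, -0.03 and 0.06 on the FI-Delta time arrays. At 72 h between the lines they were 0.03 and -0.11. The sign of these medians thus differed between arrays of 1 side on 3 of the 4 sides.

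Other mitochondrial and metabolic genes, from lists written for this comparison, are set beside the chain here as counts. Protein import and folding genes fell in Y577F cells in 11 of 28 cases, with 0 higher, and in FI-Delta cells in 5, with 0 higher. Over all features 8.75% fell in Y577F cells and 2.97% in FI-Delta cells. The largest in Y577F cells were the chaperonin Hspd1 (-0.97 ± 0.09), the outer membrane import subunit Tomm5 (-0.86 ± 0.09) and Timm8a1 of the intermembrane space (-0.69 ± 0.11), and in FI-Delta cells Phb2 (-0.56 ± 0.10), Hspd1 (-0.50 ± 0.10) and Hspa9 (-0.44 ± 0.08). The medians of this list were -0.16 in Y577F cells and -0.07 in FI-Delta cells, where all features had 0.0073 and -0.0055. Among regulators of mitochondrial gene expression, 4 of 18 fell in Y577F cells, with 0 higher. These are 22.2% of the list, where 8.75% of all features fell and 18.0% were called either way. The share rests on few genes. In FI-Delta cells 0 regulators were called, and 3 were lower at an unadjusted p under 0.05, beside 1764 of 20243 features. The 4 that fell in Y577F cells included Gabpb1, a subunit of the GABP factor (-0.75 ± 0.09), the translation factor Tsfm (-0.66 ± 0.09) and the coactivator Pprc1 (-0.50 ± 0.10). The difference between the lines was called for Gabpb1 (-0.66 ± 0.10) and Tsfm (-0.38 ± 0.10).

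Other lists were mixed, and their counts read against 18.0% of all features called in Y577F cells, 8.16% in FI-Delta cells and 12.9% at 72 h between the lines; shares near these are no result about a list. Of 16 genes of the TCA cycle and pyruvate metabolism, 1 rose and 3 fell in Y577F cells, led by Pcx (-0.63 ± 0.10), Suclg2 (-0.52 ± 0.11) and Idh3b (0.51 ± 0.13), and in FI-Delta cells 1 fell (Suclg2, -0.41 ± 0.11). Of 33 assembly factors outside the symbol rule, 3 rose and 2 fell in Y577F cells, among them Coa5 (0.43 ± 0.08), the cytochrome heme lyase Hccs (-0.40 ± 0.09) and Sdhaf2, which attaches FAD to Sdha (0.34 ± 0.08); in FI-Delta cells Coa4 rose (0.46 ± 0.11). Of 17 carriers, porins and uncouplers, 3 rose and 3 fell in Y577F cells, and 2 rose and 1 fell in FI-Delta cells. The pyruvate carrier subunit Mpc1 had 0.62 ± 0.09 in both lines, the citrate carrier Slc25a1 had -0.65 ± 0.11 in Y577F cells and -0.64 ± 0.11 in FI-Delta cells, and Ucp1 had 0.94 ± 0.10 and 0.52 ± 0.10. Of 13 genes of other electron entry to ubiquinone, 2 fell in Y577F cells (Prodh, -0.52 ± 0.08, and Coq2, -0.26 ± 0.08), and 3 were lower than in FI-Delta cells at 72 h, led by Gpd2 (-0.63 ± 0.13) and Etfb (-0.60 ± 0.09). Of 10 antioxidant genes, 2 rose and 2 fell in Y577F cells, among them Sod1 (-0.78 ± 0.13), Prdx3 (-0.38 ± 0.09) and Cat (0.36 ± 0.09), and in FI-Delta cells Sod1 fell (-0.61 ± 0.13).

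Of 18 glycolysis genes, 3 rose and 5 fell in Y577F cells, and 1 fell in FI-Delta cells. The shares called were 44.4% and 5.56%, against 18.0% and 8.16% of all features. The lactate and pyruvate transporter Slc16a1 had -1.49 ± 0.08 in Y577F cells and -0.51 ± 0.08 in FI-Delta cells, with a called difference of -0.97 ± 0.09 (limma adjusted p = 9.59e-05). Pgk1 had -0.81 ± 0.18 and the glucose transporter Slc2a3 -0.59 ± 0.12 in Y577F cells. At 0 h, 0 genes of these 8 lists were called by limma. At an unadjusted p under 0.05, any list had at most 4 higher and 2 lower, beside 1321 higher and 1132 lower of 20243 features.

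**Figure D4:**
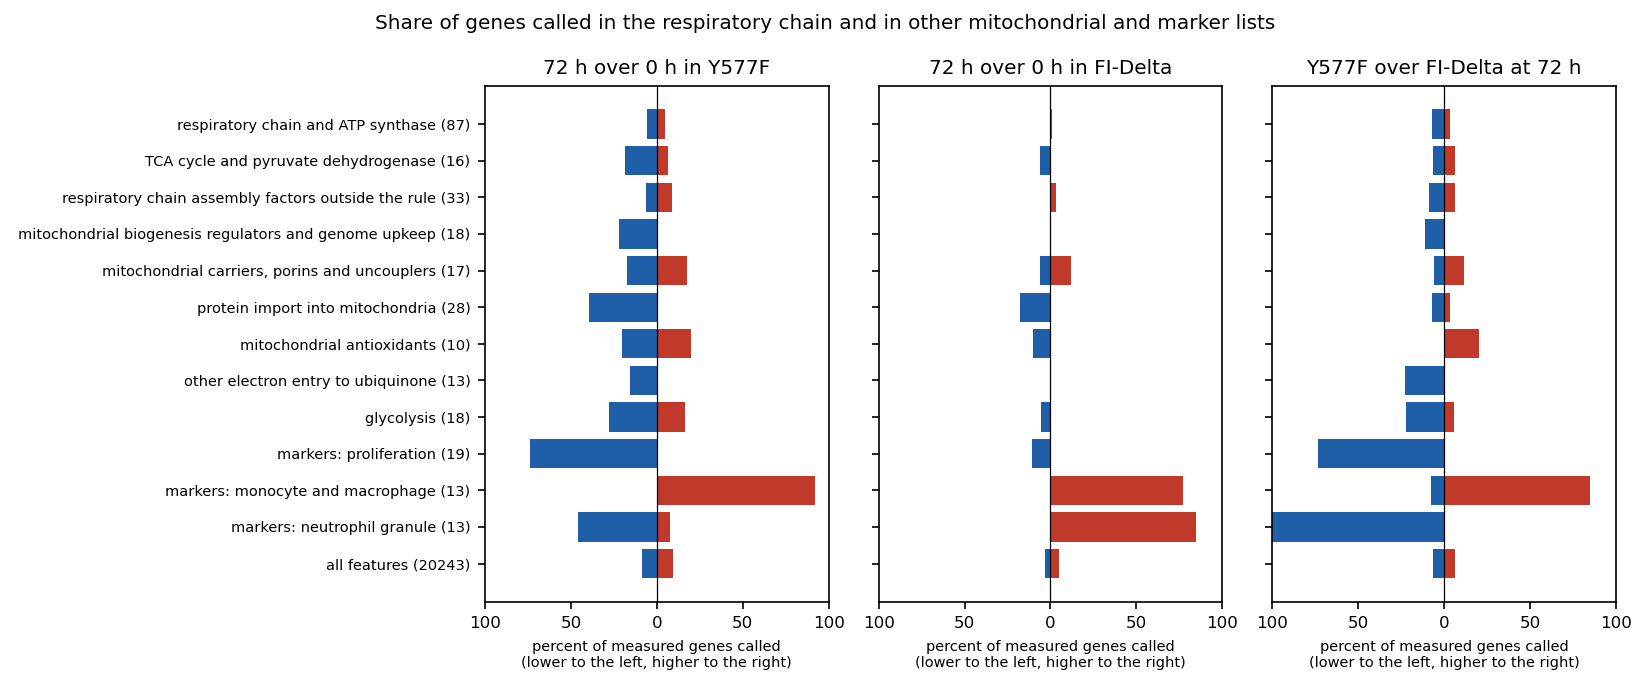
Percent of measured genes called lower (left) and higher (right) in the respiratory chain and in other lists, with the number of genes measured in brackets, for 3 sides of the design. The respiratory chain bar is short on all 3, beside protein import (11 of 28 lower in Y577F cells) and proliferation markers (14 of 19 lower).

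The plot of called shares also holds the proliferation, monocyte and macrophage, and neutrophil granule markers. Larger shares of these lists were called than of the respiratory chain on the sides plotted. The counts below read against 18.0% of all features called in Y577F cells, 8.16% in FI-Delta cells, 12.9% at 72 h and 1.42% at 0 h. Of 19 proliferation genes, 14 fell in Y577F cells over time and 2 in FI-Delta cells, and 14 were lower in Y577F cells at 72 h. Their array medians were -0.58 and -0.56 in Y577F cells, and 0.05, -0.05 and -0.06 in FI-Delta cells. Of 13 monocyte and macrophage genes, 12 rose in Y577F cells and 10 in FI-Delta cells, with array medians of 1.91 and 2.35 in Y577F cells, and between 0.66 and 0.96 in FI-Delta cells. Of 13 neutrophil granule genes, 1 rose and 6 fell in Y577F cells and 11 rose in FI-Delta cells, and in Y577F cells 13 were lower at 72 h and 12 at 0 h. Of 7 myeloid progenitor genes (with Mpo, also in the granule list), 1 rose and 2 fell in Y577F cells, and 2 fell in FI-Delta cells. Of 9 mast cell and basophil genes, 4 fell in each line, and of 9 erythroid and megakaryocyte genes 2 rose and 2 fell in Y577F cells, and 2 fell in FI-Delta cells. Of 11 lymphoid genes, 1 rose in Y577F cells, and 0 were called in FI-Delta cells or between the lines at 72 h. The arrays give ratios, so whether a marker is present or absent at 0 h cannot be read from them. In such bulk RNA, fewer cells of a type and less RNA per cell cannot be told apart. The part of these shifts in the values of the respiratory chain genes was not tested.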

How the data were processed

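Total RNA of 4 groups with 2 cultures each was measured on 10 two-colour arrays of spotted oligonucleotides, after indirect Cy-dye labelling. The authors deposited 1 normalised ratio of both channels per spot, taken here as log2 of Cy5 over Cy3, an assumption. Per the submitters' processing notes limma was used, with its version, background correction and normalization method not given in the sources used here. Of 23040 spots, 1243 controls were left out. Of 21797 probes, 16651 had a single symbol in the platform annotation, 137 several and 5009 none. Probes of 1 gene were averaged (1050 genes) and other probes kept apart, which gave 20243 features with 0 missing values. No position is given for probes, and some may detect related genes or pseudogenes.

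Ratios were turned by the titles. limma 3.58.1 (R 4.3.3) fitted 3 coefficients for the groups and a dye term, with 5 residual and 6.34 prior degrees of freedom. Tests were two-sided. Alternatives were a fit without the dye term, direct arrays only, the dye swap entered separately, array weights, scaling between arrays and probes kept apart. Others were robust moderation, a replicate block for the 8 RNA extracts, leaving out each array, and leaving out the assembly factors. The fits on direct arrays only and with the replicate block had no dye term. The block fitted each extract as its own coefficient. The main fit was also run on simulated data, with planted changes larger than any estimate of these genes, independent noise on each array and no shared RNA. That run therefore does not bear on calls of the size given here.

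The members and lists were chosen with earlier results of these data known. Named are, per comparison and complex, up to 4 called genes with the largest change, or the 2 largest where none was called; Cycs and Cyc1; genes whose probes disagree; up to 6 genes called for the difference between the lines; and up to 3 called genes of each other list. Members singled out beyond this rule (Sdhc, Sdhd, Ndufa4 and Cox7a1) were chosen after their values were seen. Numbers in the labels run across cultures in an order that differs between arrays, so the block did not read them in title order throughout. It took the lower numbers as FI-Delta cultures and the higher ones as Y577F cultures, as in the titles of the time arrays. For the arrays between the lines this is an assumption, and the block results rest on it.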

Additional observations from a re-analysis of the deposited data

Results flagged for a closer look

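For 6 genes the change between 72 h and 0 h differed between the lines in limma's test of the difference itself (Y577F change minus FI-Delta change, adjusted over all features). The difference was positive for Sdha, the flavoprotein subunit of complex II, at 0.42. It was negative for Ndufa12 (-0.57) and Ndufs6 (-0.41) of complex I, for the assembly factor Ndufaf3 (-0.47), for Cox7a2 of complex IV (-0.41) and for Uqcrc2 of complex III (-0.36). Each of these 6 calls was lost without 72 h array 2, with the replicate block for each RNA extract and on direct arrays only. Of the genes, 5, all but Ndufaf3, had at least 1 time change or 72 h difference that was called by itself. The direct time arrays of the lines did not overlap for 5 of the 6 genes and overlapped for Uqcrc2. The model that picked these genes used the same arrays, so this is no further support. The share of all features without overlap was not computed.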

How the results depend on the processing

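With array weights, the genes called were 3 higher and 3 lower in FI-Delta cells over time, 11 higher in Y577F cells, 14 higher at 72 h between the lines and 4 higher for the difference between changes. On direct arrays only, they were 0 higher in FI-Delta cells, 1 higher and 3 lower in Y577F cells, 1 higher and 1 lower at 72 h, and 0 and 0 for the difference. With the replicate block for each RNA extract, they were 0 higher in FI-Delta cells, 1 higher and 2 lower in Y577F cells, 1 higher and 2 lower at 72 h, and 0 and 0 for the difference. Without the dye term, 3 were lower at 72 h. With each probe its own feature, 2 were higher in FI-Delta cells and 2 for the difference. Leaving out 1 array at a time gave 0 to 2 higher and 0 to 0 lower in FI-Delta cells, 2 to 6 higher and 0 to 5 lower in Y577F cells, 2 to 5 higher and 1 to 6 lower at 72 h, and 0 to 2 higher and 0 to 10 lower for the difference. The lowest counts came without Y577F time array 2 (2 higher in Y577F cells), Y577F time array 1 (0 lower in Y577F cells), 72 h array 2 (1 lower at 72 h) and 0 h array 1 or 72 h array 2 (0 lower for the difference), and the highest for the difference came without Y577F time array 2. At 0 h, 0 were called under every setting. Under each setting the medians over the 87 genes moved by less than the SD of the array medians of a side (of both time sides for the difference). That SD comes from 2 or 3 arrays a side, so it is a loose bound. Leaving out 1 array gave 72 h medians from -0.06 to 0.07, on both sides of 0. No called change turned its sign. Calls of Sdhb and Cox7a2 at 72 h held under all settings. That of Atp5md in Y577F cells did so except with each probe its own feature, where probe 1 was called and probe 2 was not (-0.02, limma adjusted p = 0.952). The cause of these shifts was not tested, and the share of all features called under each setting was not computed. With 2 or 3 arrays a side, no feature with a change smaller than 0.24 on the log2 scale was called in any comparison.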
